A study of Homo sapiens with 24 samples.

Results

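The small ribosomal subunit reads messenger RNA, and its protein genes were examined here for Myc binding. The set holds 28 genes chosen by name, which are RPSA, FAU and the RPS genes named below, out of 20037 protein-coding genes on chromosomes 1 to 22, X and Y. A gene was marked when a Myc peak reached within 1 kb of either end of its RefSeq span in hg38. The spans lay on 16 chromosomes and ran from 1394 to 27723 bp, with a median of 4768 bp against 24115 bp for all protein-coding genes.

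The assay was CUT&Tag: a transposase held at the antibody's target cuts and tags the nearby DNA, and bound places show as peaks of sequenced fragments. It was run on MIA PaCa-2 cells, an established human pancreatic carcinoma line. The cells carried a tetracycline-inducible MED30, a subunit of the Mediator complex. The series asks how changes in MED30 affect the binding of other factors. Its other cells carry an inducible hairpin against MED30 (shMED30) and were not used. Of 24 samples, 2 were used: 1 Myc library without doxycycline and 1 titled as 5 days of doxycycline, called day 5 here. Both groups carry the inducible construct, and the labels do not say whether the cells are 1 clone. The shared protocol in the labels gives 2 days of doxycycline, unlike the title. The remaining 22 samples were not analysed here. Among them is a further Myc library of these cells, titled as 1 day of doxycycline. Control IgG is also among them, so peaks were not set against that background here. With 1 library per condition there is no replicate check and no test, and each comparison below is between these 2 libraries. Of 16 fixed markers of pancreatic, epithelial, mesenchymal and blood cells, VIM had a peak in both lists and ZEB1 at day 5, while the other 14 had none; Myc peaks do not measure expression, so the cell line's identity was not tested.

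Myc binds DNA as a pair with MAX and prefers the E-box, CACGTG. Genes of ribosomes and of their assembly are among the best-known groups that Myc occupies, since growing cells need many ribosomes. Ribosomal protein messenger RNAs characteristically begin with a C followed by a run of pyrimidines (C or T in DNA), the 5′ terminal oligopyrimidine tract through which mTOR signalling controls their translation. The small subunit has a head, which carries part of the tRNA path, and a body with a platform, which hold the decoding centre and the exit path of the messenger RNA.

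Promoter letters are shown for 7 genes with a peak in both lists, among them RPS14, RPS19, RPS24 and RPSA, which had the most fragments at day 5. RPS28 and RPS16, which had no peak, are shown beside them. RPS28 is the only 1 of 8 genes with no peak and a promoter entry that holds CACGTG, so the lines are examples and do not represent the set. Each line gives 120 bases before the RefSeq start and the first 20 bases from it, on the gene's own strand, from RefSeq's GRCh38.p14 tables. Capitals mark the E-box CACGTG, the core of the ETS family's site, which reads CCGGAAG on one strand and CTTCCGG on the other, and the pyrimidine run where a gene starts with C. The second start of RPS19 is shown with 10 bases before it, for the only E-box of that gene.
RPS14, chr5:150449720-150449859, minus strand: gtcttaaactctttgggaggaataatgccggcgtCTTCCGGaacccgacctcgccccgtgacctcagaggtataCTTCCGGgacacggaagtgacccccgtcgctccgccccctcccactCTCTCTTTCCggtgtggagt
RPS19, first start, chr19:41860135-41860274, plus strand: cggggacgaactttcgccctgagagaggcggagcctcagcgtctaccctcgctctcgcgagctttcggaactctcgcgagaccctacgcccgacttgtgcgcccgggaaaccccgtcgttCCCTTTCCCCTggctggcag
RPS19, second start, chr19:41860394-41860423, plus strand: cccgccccctagagccgcggcCACGTGcga
RPS24, chr10:78033743-78033882, plus strand: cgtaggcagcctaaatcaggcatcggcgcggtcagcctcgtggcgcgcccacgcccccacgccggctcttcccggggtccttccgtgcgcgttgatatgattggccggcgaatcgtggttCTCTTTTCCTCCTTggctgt
RPSA, chr3:39406600-39406739, plus strand: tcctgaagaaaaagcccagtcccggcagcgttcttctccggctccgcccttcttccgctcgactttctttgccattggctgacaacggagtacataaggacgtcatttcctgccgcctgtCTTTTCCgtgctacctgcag
RPS25, chr11:119018324-119018463, minus strand: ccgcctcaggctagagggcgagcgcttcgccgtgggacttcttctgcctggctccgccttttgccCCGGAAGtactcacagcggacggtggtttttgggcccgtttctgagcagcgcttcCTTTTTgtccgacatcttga
RPS23, chr5:82278335-82278474, minus strand: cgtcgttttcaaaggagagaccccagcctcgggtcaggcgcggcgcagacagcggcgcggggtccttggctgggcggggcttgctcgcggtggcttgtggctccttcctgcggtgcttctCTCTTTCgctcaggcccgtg
RPS9, chr19:54200738-54200877, plus strand: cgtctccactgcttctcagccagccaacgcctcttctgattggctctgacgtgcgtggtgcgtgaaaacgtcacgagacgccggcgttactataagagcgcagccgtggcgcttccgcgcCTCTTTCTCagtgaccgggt
RPS28, no peak, chr19:8321376-8321515, plus strand: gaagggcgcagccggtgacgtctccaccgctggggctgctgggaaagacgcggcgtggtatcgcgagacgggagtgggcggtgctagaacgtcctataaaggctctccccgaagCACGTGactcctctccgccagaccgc
RPS16, no peak, chr19:39435930-39436069, minus strand: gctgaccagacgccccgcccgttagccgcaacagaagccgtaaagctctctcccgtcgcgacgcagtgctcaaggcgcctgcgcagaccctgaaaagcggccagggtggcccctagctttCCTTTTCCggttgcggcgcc

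Small subunit genes carried Myc peaks more often than protein-coding genes at large, in each library. Without doxycycline 14 of the 28 (50.0%, 95% exact Clopper-Pearson interval 30.6 to 69.4) had a peak, against 14.4% of all protein-coding genes. At day 5 there were 18 (64.3%, 44.1 to 81.4), against 27.4%. The intervals treat genes as independent draws and do not cover the spread between libraries, and the comparison sets are not matched on gene activity.

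Membership of the 2 lists overlapped widely. Both lists held 13 of the genes: RPS3, RPS3A, RPS6, RPS7, RPS9, RPS12, RPS14, RPS19, RPS23, RPS24, RPS25, RPS26 and RPSA (46.4%, against 12.9% of all protein-coding genes). At day 5 only there were RPS10, RPS15A, RPS27A, RPS29 and FAU, which is 17.9% against 14.5% of all genes. RPS20 alone was listed only without doxycycline, where 1.57% of all genes were. RPS2, RPS4X, RPS13, RPS15, RPS16, RPS18, RPS21, RPS27 and RPS28, 9 genes in all, had a peak in neither list. The number of marked genes was 1.29 times as high at day 5, and 1.90 times as high over all protein-coding genes. When the day 5 list was shortened to its 3472 top-ranked peaks, as many as the other list held, 13 genes were marked. This was 46.4%, against 15.7% of all protein-coding genes. It was 0.929 times the number without doxycycline, against 1.09 times over all protein-coding genes. The direction for the small subunit genes thus depended on the number of peaks taken. RPS3, RPS6, RPS7, RPS10 and FAU left the day 5 set in that case.

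**Figure D1:**
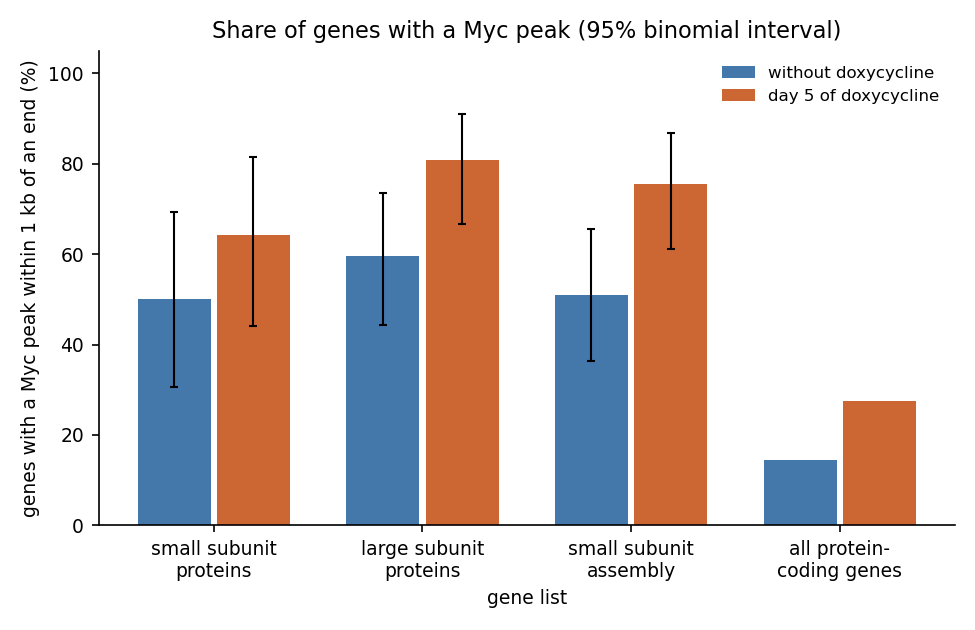
Share of genes (%, vertical axis) whose end lies within 1 kb of a Myc peak, for each gene list, in the library without doxycycline (blue) and at day 5 (orange), with 95% exact binomial intervals on the 3 lists. The small subunit bars stand at 50.0% and 64.3%, above the 14.4% and 27.4% of all protein-coding genes.

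The strength of a peak is given below as the number of fragments over its summit, recovered from the fold enrichment and −log10 p-value that the authors deposited. Over the marked genes the median was 15.5 fragments without doxycycline (range 4 to 42) and 18.5 at day 5 (9 to 43), against 11.0 and 12.0 for all protein-coding genes with a peak. By −log10 q rank, 3 of 14 small subunit genes without doxycycline and 4 of 18 at day 5 were among the top 10% of their list (21.4% and 22.2%, against 12.1% and 12.8% of all marked genes). The Poisson intervals of single genes cover counting error only, since the lists do not reveal PCR duplicates.

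RPS14, a platform protein whose loss of 1 copy underlies the anaemia of the 5q deletion syndrome, had the most fragments of the set in each library. It had 42 without doxycycline (95% exact Poisson interval 30.3 to 56.8) and 43 at day 5 (31.1 to 57.9), over a local background of 1.92 and 2.55 fragments. Its peak ranked 39 of 3472 and 95 of 6727. The peak at day 5 lay at chr5:150449453-150450131 and covered the gene's start, with the summit 169 bp before it.

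RPS19, a head protein and the gene first found mutated in Diamond-Blackfan anaemia, came second in both libraries. It had 32 fragments without doxycycline (21.9 to 45.2) and 41 at day 5 (29.4 to 55.6), at ranks 89 and 107. The 2 summits, 242 and 268 bp before the first start, were 26 bp apart, and neither peak reached the start itself, ending 74 and 27 bp short of it.

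RPS24, needed for maturation of 18S ribosomal RNA and another Diamond-Blackfan gene, differed most between the libraries. It had 20 fragments without doxycycline (12.2 to 30.9) and 38 at day 5 (26.9 to 52.2). The ratio was 1.90, with an exact interval of 1.08 to 3.45, and this was the only one of the 13 ratios whose interval left out 1. The interval held 1.43, which was the median ratio of all 2580 protein-coding genes with a peak in both libraries. Its local background, 2.26 and 4.06 fragments, was the highest of the set in each library.

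RPSA, a protein of the solvent side near the exit of the messenger RNA, had 19 fragments (11.4 to 29.7) and 28 (18.6 to 40.5). Its summits lay 111 and 93 bp after the start, inside the gene. RPS23, a protein of the decoding centre, had 17 (9.90 to 27.2) and 21 (13.0 to 32.1), with summits 98 and 246 bp before the start. Both genes were thus marked at their starts in each library, on opposite sides of it.

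Among the other body and platform genes the numbers were smaller. RPS3A, beside the exit of the messenger RNA, had 14 fragments without doxycycline and 15 at day 5. RPS26, which touches the messenger RNA before the start codon, had 11 and 14. RPS9, at the entry of the messenger RNA, had 9 and 15. These 3 peaks at day 5 covered their gene's start, with summits 103, 10 and 21 bp before it. RPS6, the substrate of S6 kinase, had 9 and 11 fragments, and RPS7, which can bind MDM2, had 8 and 9. RPS6 ranked 2215 of 3472 and 3501 of 6727, near the middle of the day 5 list, and RPS7 was lower, at 2702 and 5709.

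Head proteins with a peak in both libraries were RPS12, RPS25 and RPS3 besides RPS19. RPS12 had 22 fragments (13.8 to 33.3) in each library. RPS25, a head protein used by some viral internal ribosome entry sites, had 20 (12.2 to 30.9) and 21 (13.0 to 32.1). RPS3, at the entry of the messenger RNA, had 7 (2.81 to 14.4) and 10 (4.80 to 18.4), and its 2 peaks did not overlap. Without doxycycline its peak lay in the gene with the summit 1076 bp after the start, 56 bp from an end of SNORD15A, a small nucleolar RNA gene within RPS3, and at day 5 the summit was 228 bp after the start. The peaks were 30 bp apart.

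The genes listed at day 5 only had 9 to 20 fragments. RPS27A, which is made as a fusion with ubiquitin, had 20 (12.2 to 30.9), and RPS15A, of the body, 19 (11.4 to 29.7). RPS29, a zinc-binding head protein, had 18 (10.7 to 28.4). RPS10, a head protein that is ubiquitinated when ribosomes collide, had 11 (5.49 to 19.7), and FAU, which encodes a ubiquitin-like protein fused to RPS30, had 9 (4.12 to 17.1). RPS27A, RPS15A and RPS29 had more fragments than the day 5 median of all protein-coding genes with a peak (12.0), and RPS10 and FAU fewer. The smallest −log10 q was 1.33 in both lists, and an unlisted gene is one where no peak passed the authors' limit, which says nothing firmer about Myc there.

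RPS20, a head protein on chromosome 8, had the fewest fragments, with 4 (1.09 to 10.2) over a background of 0.173 without doxycycline. Its peak ranked 3112 of 3472, and at day 5 no peak was listed within 294 kb. The single gene listed only without doxycycline was therefore among the lowest-ranked of that list.

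**Figure D2:**
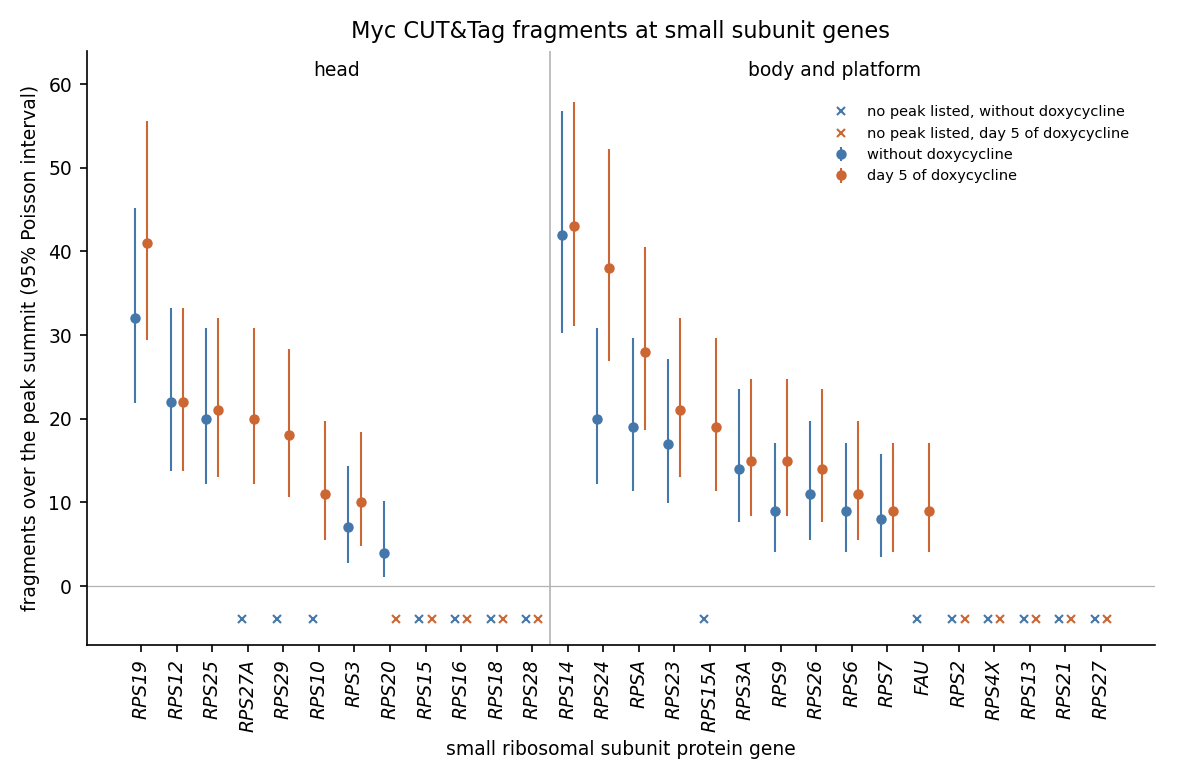
Fragments over the peak summit (vertical axis) for each of the 28 genes, head proteins on the left and body and platform proteins on the right, without doxycycline (blue) and at day 5 (orange), with 95% exact Poisson intervals. Crosses below 0 mark genes with no listed peak, not a measured 0; RPS14 and RPS19 have the most fragments in each library, and 9 genes have crosses in both colours.

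By position in the subunit, 5 of 12 head genes (41.7%, 15.2 to 72.3) and 9 of 16 body and platform genes (56.2%, 29.9 to 80.2) had a peak without doxycycline. At day 5 they were 7 (58.3%, 27.7 to 84.8) and 11 (68.8%, 41.3 to 89.0). The intervals of head and body overlapped widely, so no difference between them was detectable with these numbers of genes.

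For the 13 genes in both lists, summit fragments were higher at day 5 in 12, equal in 1 (RPS12) and lower in 0. Over all protein-coding genes in both lists 81.5% were higher at day 5. The median ratio was 1.24, with a range of 1.00 to 1.90 and quartiles of 1.07 and 1.43, against a median of 1.43 and quartiles of 1.13 and 1.82 over all those genes. The ratio of all genes was the only scale, with total reads not given in the sources used here. Divided by it, the median of the small subunit genes was 0.865. Above 1 were 3 of 13 (23.1%, against 49.8% of all genes in both lists): RPS24, RPS9 and RPSA. All 13 intervals held the median of all genes, so a departure of any single gene from it was not detectable at this depth.

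**Figure D3:**
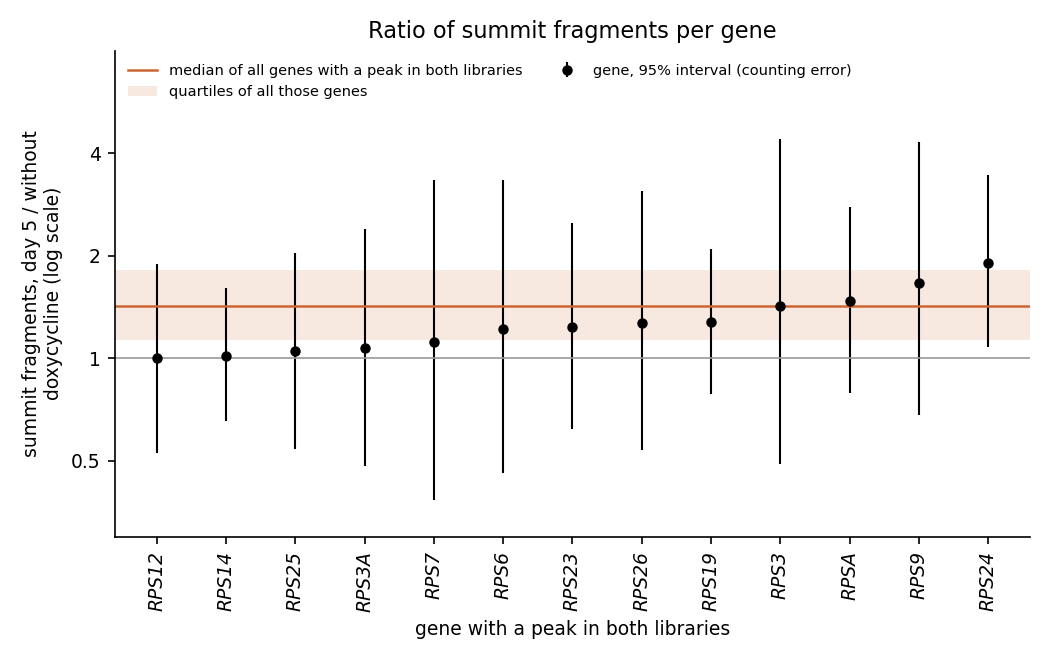
Ratio of summit fragments, day 5 over without doxycycline (log scale), for the 13 genes with a peak in both libraries, with 95% exact intervals for counting error; the orange line and band are the median (1.43) and quartiles (1.13 and 1.82) of all 2580 genes with both peaks. Only the interval of RPS24 lies wholly above 1, and every interval crosses the orange line.

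Most summits lay near a listed gene start. The rule takes only peaks within 1 kb of a gene end, so closeness to an end is partly built in. RefSeq promoter entries, which give strand and start, were found for 25 of the 28 genes, the exceptions being RPS2, RPS15A and RPS20. Of the genes with such an entry, 13 had a peak without doxycycline and 17 at day 5, and 9 and 12 of these peaks covered a listed start. The share of peaks that cover a start was not computed over all genes. The summit was within 500 bp of a listed start in 12 of 13 and 16 of 17 (92.3% and 94.1%, against 81.2% and 82.0% of all marked protein-coding genes with an entry). RPS3 without doxycycline and RPS12 at day 5 were the exceptions. Summits lay before the start in 9 of 13 and 12 of 17 (69.2% and 70.6%, against 58.1% and 55.3%). The median distance, without sign, was 111 bp and 169 bp, against 239 and 221 bp. In 12 of the 13 genes in both lists the 2 peaks overlapped, and the summits were a median of 62 bp apart.

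**Figure D4:**
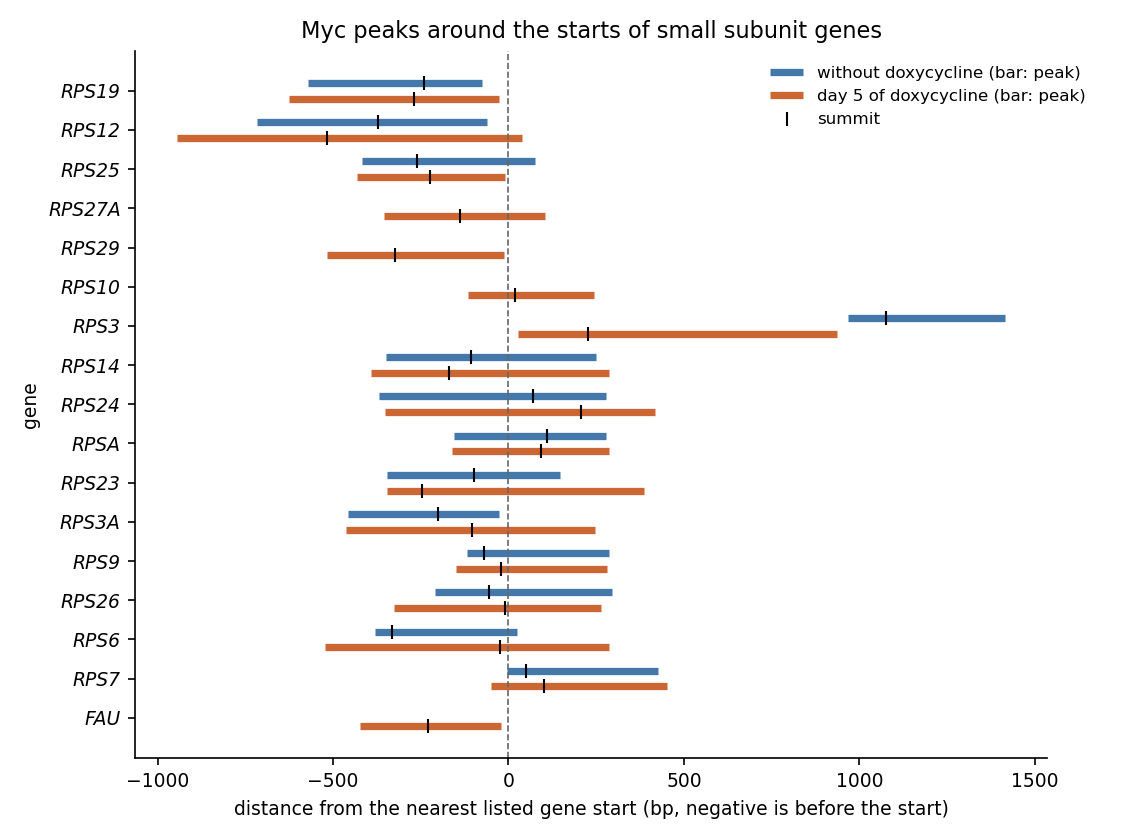
Extent of each Myc peak (bars) and its summit (black ticks) as distance in bp from the nearest listed start of the gene, for the 17 genes with a peak and a RefSeq promoter entry, without doxycycline (blue) and at day 5 (orange). Most bars cross or end just before 0, and the blue bar of RPS3, with its summit at 1076 bp, stands apart.

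Several of these peaks also lay near an end of a neighbouring gene, and such a peak cannot be assigned to one gene. Whether that end is the neighbour's start was not checked. Without doxycycline 6 of 14 peaks were within 1 kb of an end of another annotated gene, and at day 5 9 of 18 were. The summit was nearer the neighbour's end in 4 and 6 of them. RPS25 lies next to TRAPPC4, a vesicle tethering factor, whose end was 162 and 200 bp from the summits while that of RPS25 was 261 and 223 bp away. FAU lies next to MRPL49, a mitochondrial ribosomal protein gene (180 bp against 229 bp), and RPS29 next to LRR1 (93 bp against 323 bp). The RPS27A summit was 22 bp from an end of CLHC1, and it lay 638 bp inside the span of RPS27A, 137 bp before another listed start of that gene. RPS10 shares its start with the readthrough gene RPS10-NUDT3. The other such neighbours were the non-coding LOC124907726 at RPS7, LOC107986644 at RPS12 and CERNA3 at RPS20, the pseudogene ATP6AP1L at RPS23, RHOQP1 at RPS29, and the small nucleolar RNA genes SNORD15A, SNORD101 and SNORD54 inside RPS3, RPS12 and RPS20. Of the 5 genes listed at day 5 only, 4 had another protein-coding gene end within 1 kb of the peak, with RPS15A the exception. Of the 13 in both lists, RPS25 alone did. These counts of neighbours were not made over all marked protein-coding genes, so they do not show whether nearby ends are particular to this set.

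Genes without a peak were far from one in most cases. For the 9 genes marked in neither list the nearest peak was a median of 45.1 kb away without doxycycline (1.90 to 147 kb) and 32.7 kb at day 5 (3.48 to 130 kb). RPS16, whose protein reaches the peptidyl site, was nearest the limit with a peak at 1.90 kb without doxycycline, and RPS3, at 0.967 kb, was the last one inside it. RPS15, of the head, had a day 5 peak at 3.48 kb. RPS2 and RPS13, both hosts of small nucleolar RNAs, had their nearest peak at 45.1 and 130 kb in each library. In all, 7 of the genes hold 14 small nucleolar RNA genes in their span. Of these 7, 5 had a peak in either list, as did 14 of the other 21. By comparison, either list marked 4913 of 15843 protein-coding genes with a RefSeq promoter entry, and 17 of the 25 small subunit genes with one. Such host genes were not counted over all protein-coding genes.

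The share of small subunit promoters with an E-box was near that of all genes. In windows of 250 bases before to 50 after a listed start, CACGTG, which reads the same on both strands, was found in 2 of 25 genes (8.00%, 0.984 to 26.0), against 10.9% of 15843 protein-coding genes with such windows. These were RPS28, which had no peak, 6 bases before the start, and RPS19, after its second start, outside both of its peaks. Among all protein-coding genes CACGTG was in 15.8% of those with a peak in either list and 8.69% of those with none. Among the small subunit genes it was in 1 of 17 and 1 of 8. The part of each small subunit peak covered by RefSeq windows of any gene (a median of 46.8% and 43.2% of the peak) held no CACGTG in 12 and 17 genes, which allows a share of up to 26.5% and 19.5%. Over all protein-coding genes 15.6% and 14.5% of such peaks held one. Those intervals include the values of all genes, and the rest of each peak was not searched.

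CACGCG or its complement CGCGTG, an E-box variant, was in 4 of 25 genes (16.0% against 18.1% of all): RPS6, RPS15, RPS19 and RPS29. CACATG or CATGTG was in 2, RPS12 and RPS26 (8.00% against 11.5%). The ETS core CCGGAAG or CTTCCGG was in 9 (36.0%, 18.0 to 57.5), against 16.5% of all genes and 26.5% of those with a peak in either list. The core was also in 34.2% of large subunit protein genes and 40.9% of factors that assemble the small subunit. It was at 2 places each in RPS14, which had peaks, and RPS18 and RPS21, which had none, and at 1 place each in RPS3A, RPS4X, RPS6, RPS10, RPS25 and RPS27A, with a like share among genes with a peak (6 of 17) and without (3 of 8). AAGATGGC or GCCATCTT, the core of the YY1 site, was in 3 genes, FAU, RPS3 and RPS28 (12.0%, 2.55 to 31.2). Of all genes 4.66% held it, and of those with a peak in either list 7.90%. TATAAA or TTTATA was in RPS3 and RPS28 (8.00% against 12.4%). All were searched on both strands, 0 matches of different motifs overlapped in these windows, and a match describes letters and shows no binding.

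What the promoters shared was the pyrimidine start. A C at the start followed by at least 4 more pyrimidines was found in 19 of 25 genes (76.0%, 54.9 to 90.6), against 6.24% of all protein-coding genes. RPS4X, RPS7, RPS15, RPS26, RPS28 and RPS29 lacked it at the RefSeq start. It was in 14 of 17 genes with a peak and 5 of 8 without. The longest run was 14 bases, in RPS24. The median G and C content of the windows was 60.3%, near the 62.3% of all genes.

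**Figure D5:**
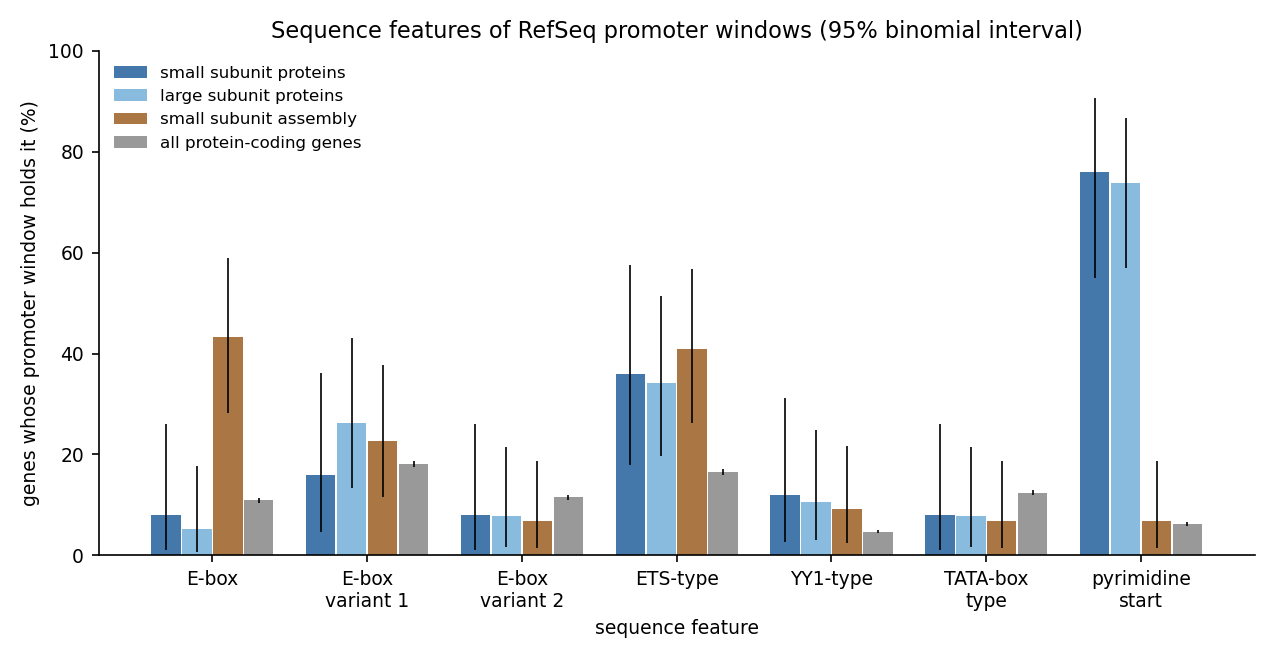
Share of genes (%, vertical axis) whose RefSeq promoter window holds each sequence feature named in the text, for small subunit proteins, large subunit proteins, small subunit assembly factors and all protein-coding genes, with 95% exact binomial intervals. Variant 1 and variant 2 are the CACGCG and CACATG forms; the pyrimidine start stands at 76.0% for small subunit proteins against 6.24% of all genes, and the E-box at 8.00% against 43.2% for assembly factors.

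Other genes of the same pathway were looked up by the same rule. The large subunit had 28 of 47 protein genes marked without doxycycline (59.6%, 44.3 to 73.6) and 38 at day 5 (80.9%, 66.7 to 90.9), with intervals that overlap those of the small subunit. The large subunit genes with the highest-ranked day 5 peak were RPLP2, of the stalk, with 33 and 52 fragments, RPL7 with 38 and 44, RPL39 with 31 and 39, and RPL35 with 21 and 38. Their promoters resembled those of the small subunit, with CACGTG in 2 of 38 (5.26%) and the pyrimidine start in 28 of 38 (73.7%).

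Factors that assemble the small subunit were marked about as often but differed in promoter letters. Marked were 25 of 49 without doxycycline (51.0%, 36.3 to 65.6) and 37 at day 5 (75.5%, 61.1 to 86.7), led by UTP18 with 67 and 62 fragments, WDR75 with 36 at day 5 only, RIOK1 with 18 and 30 and WDR36 with 13 and 25. CACGTG was in 19 of 44 of their promoters (43.2%, 28.3 to 59.0), an interval that lies above the whole interval of the small subunit proteins (0.984 to 26.0). The pyrimidine start was in 3 of 44 (6.82%, 1.43 to 18.7), below that of the small subunit proteins (54.9 to 90.6). No test of these differences was made.

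Of 7 further small subunit genes and paralogues outside the set of 28, 3 were marked without doxycycline (42.9%, 9.90 to 81.6) and 4 at day 5 (57.1%, 18.4 to 90.1). RACK1, the signalling scaffold on the head, had 26 and 35 fragments, and RPS27L, a paralogue of RPS27, had no peak in either list.

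Processed pseudogenes copy the exons of ribosomal protein genes but not their promoters. RefSeq lists 656 pseudogenes named after the 28 genes on these chromosomes, and 1 (0.152%) had a peak within 1 kb without doxycycline and 3 (0.457%) at day 5, against 0.748% and 1.45% of all 16845 pseudogenes. RPS20P35 was marked by a peak whose summit was 41 bp from RPL23. RPS12P29 and RPS10P29 were marked by peaks with summits 128 and 31 bp from PELP1 and SPECC1L. RPS27P30 was the only one with its peak far from a coding gene's end, at 48535 bp, with 19 fragments. The authors' treatment of reads that match several copies is not stated in the labels.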

How the data were processed

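Only 2 of the 24 samples were used, grouped by their titles. The submitters' processing notes name the tools MACS2, Bowtie2, Trim Galore and deepTools and the build hg38. Versions, settings and any control used for peak calling were not found (not given in the sources used here). For each library the authors deposited 1 list of 10 columns, with 3559 and 6953 peaks, of which 3472 and 6727 on chromosomes 1 to 22, X and Y were used. The deposited score is the integer part of 10 times the −log10 q-value. The authors' fold is a ratio of the summit to a local background. Whether that background came from the same library or from a control is not known. The −log10 p-value and the −log10 of the q-value, also deposited, belong to the summit, and the summit's offset is in bp. None was compared between libraries.

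Whole fragment numbers k and background b were recovered where fold is (k + 1)/(b + 1) and p the Poisson tail above k, within 0.001 in −log10 p, for 99.86% and 99.97% of all peaks and for every peak named here. The gene's highest-ranked peak by −log10 q stood for it. Spans and promoter windows (250 bases before to 50 after a start, of which 25 of 28 genes had one) came from RefSeq GRCh38.p14, which is hg38. Shares have exact Clopper-Pearson intervals, fragments exact Poisson intervals and ratios exact conditional intervals, at 95%, with Python 3.11.15 and scipy 1.17.1. In simulated lists of 3472 and 6727 peaks, 100% of fragment numbers were recovered. The simulated backgrounds did not reach the lowest and highest of the small subunit genes, 0.173 without doxycycline and 4.06 at day 5. In a separate check of the marking rule, peaks were planted inside the window of 200 genes, and 100% were marked. The rule fixes that outcome, and false marks were not checked. Both checks cover the calculation only, and its error on the deposited peaks was not tested.

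The members, gene lists and motifs were chosen with earlier results of these data known. Every member is named, with up to 4 genes per further list by the rank of the day 5 peak and the genes that share a member's peak. Alternatives were other windows, summits, gene assignment, gene starts, peak thresholds, equal numbers of peaks, and another scale, window or motif. Contigs and alternate haplotypes were left out, since the reference places no member there. The values of some genes in the further small subunit list are not reported here.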

Additional observations from a re-analysis of the deposited data

How the results depend on the processing

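The marking was repeated with windows of 500 and 2500 bp, summits in place of whole peaks, and the nearest coding gene only. It was also repeated with gene starts only, out of 25 genes, and with only the better-ranked peaks of each list. The marked genes ran from 10 to 15 without doxycycline and from 13 to 18 at day 5. Of all protein-coding genes, 8.02% to 16.0% and 15.3% to 30.1% were marked. The ratio for the small subunit genes stayed above 1 (1.08 to 1.38), and below the 1.86 to 1.94 of all protein-coding genes. With equal numbers of peaks the ratio was 0.929, against 1.09 for all genes, because the day 5 peaks of 5 genes fell out. Their ranks ran from 3501 of 6727 (RPS6) to 5709 (RPS7), below the 3472 kept. Giving a peak only to its nearest coding gene removed RPS25 from both lists and FAU, RPS27A and RPS29 from day 5. Divided by the median ratio of all genes, the median ratio of summit fragments was 0.865 in place of 1.24. On that scale 3 of 13 genes in place of 12 were higher at day 5 (23.1%, against 49.8% of all genes). CACGTG was in 1 gene when only 100 bases before the start were searched (4.00%, against 5.44% of all genes). In the full window 5 genes held it or CACGCG or CGCGTG (20.0%, against 26.3%). Counting peaks on contigs was not run. No paired analysis was possible because each condition has 1 library. Depth limits the genes with fewest fragments: fewer than 10 stood behind RPS3, RPS6, RPS7, RPS9 and RPS20 without doxycycline and behind RPS7 and FAU at day 5.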

Other observations

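The printed RPS19 promoter holds the palindrome CTCGCGAG 2 times, beginning 67 and 48 bases before the first start. The letters were noticed in the printed sequence and searched for afterwards. RPS6 was the only other gene of the set with it, 51 bases before its start. That makes 2 of 25 genes (8.00%, 0.984 to 26.0), a count that includes RPS19, whose sequence prompted the search. The share and interval are therefore raised by the choice of motif. The motif was in 1.80% of all protein-coding genes with promoter windows and 3.03% of those with a Myc peak in either list. Among large subunit genes RPL4, RPL17, RPL26 and RPL27A held it, 4 of 38 (10.5%, 2.94 to 24.8). The day 5 peak of RPS19 covered both copies, and the peak without doxycycline ended 74 bp before the start, short of them. No test was made of these counts.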
